A study of Sus scrofa with 19 samples.

Results

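The interleukin 1 family was examined in endometrium (the inner layer of the uterus) from crossbred gilts, which are young female pigs (Sus scrofa). The members were named by symbol: IL1A, IL1B, IL1RN, IL1R1 and IL18. Of these 5 genes, 3 could be matched to the array through a RefSeq accession, IL1A and IL1B with 1 probe each and IL18 with 2 probes, so that 4 of the 39095 tested probes belong to the family. No probe was matched to the receptor antagonist IL1RN or the receptor IL1R1, and neither was analysed here. All 4 probes were well above background on all 19 arrays and none was saturated. IL1B2, the pig's closest relative of IL1B, had 3 probes and is given beside the family.

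The arrays fell into 4 groups from 10 gilts aged 8 months, all fitted with cannulas in both uterine horns at day 8 to 9 of the cycle. Infusions, spaced 4 h apart, ran for 24 h across days 11 and 12. Hormone horns (6 arrays, gilts 36, 38, 40, 41, 44 and 47) received prostaglandin E2 (PGE2, 200 µg) together with estradiol (E2, 33.3 µg) per infusion. Placebo horns (5 arrays, the opposite horns of the same gilts except gilt 40) were given vehicle alone, which was saline holding 1% ethanol in a volume of 5 mL. Control gilts 9, 14, 28 and 46 received the vehicle in both horns and gave 4 arrays marked P and 4 marked L, letters that the labels do not explain. Every one of the 5 placebo horns carried the mark L, and 5 of 6 hormone horns carried P, so horn mark and hormone cannot be told apart within the 5 gilts with both horns. All gilts, the controls included, had thus undergone surgery and repeated infusion, and placebo horns shared a body with a hormone horn. The gilt number names the animal. A slide held both horns of its gilt, gilts 9 and 36 shared a slide, and the other gilts had a slide each.

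Interleukin 1 alpha and beta (IL1A, IL1B) are separate ligands of the same receptor, IL1R1, which signals through the adaptor MYD88 to the transcription factor NF-kappa B. IL1RN is a natural antagonist that occupies this receptor without signalling. IL1B and IL18 are made as inactive precursors that the protease caspase 1 cuts, mainly in macrophages and other myeloid cells, while the IL1A precursor is already active and is also held by epithelial cells. IL18 acts through its own receptor, of which IL18R1 is a subunit. In the pig, the elongating conceptus secretes the IL1B relative IL1B2 into the uterus, next to the estrogen and prostaglandins that the infusions supplied. In the RefSeq table of Sscrofa11.1, IL1B and IL1A are neighbours on chromosome 3, IL18 lies on chromosome 9 and IL1B2 on a sequence not placed on a chromosome. Whether the IL1B and IL1B2 probes detect each other's transcripts was not tested.

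Levels are log2 of the processed spot signal minus the log2 of the 75th percentile of the array, so that 0 marks the brightness of that percentile. Between 79.1% and 88.4% of spots per array were well above background, and the 75th percentile was 597 to 983, with the minimum in gilt 36's hormone horn. Both horns of gilt 47 stood apart in markers of macrophages and lymphocytes. The summed linear level of the 10 measured of 14 listed macrophage and monocyte markers was 27.9 to 225 in hormone horns and 29.9 to 255 in placebo horns, against 16.9 to 28.3 in control horns P and 21.3 to 26.8 in control horns L. That of the 7 measured of 13 listed neutrophil markers was 1.70 to 70.0 in hormone horns and 0.598 to 82.0 in placebo horns, against 0.723 to 0.994 and 0.778 to 1.22 in control horns P and L. Gilt 47 had the highest value of both lists within hormone and within placebo horns, but its neutrophil sum in hormone horns was close to the 62.3 of gilt 38. For T and natural killer cells, with 10 of 15 listed markers measured, the sum was 18.8 and 17.6 in the hormone and placebo horn of gilt 47, at most 7.05 in other treated horns and at most 9.25 in control horns. That of the 3 measured of 7 listed B cell markers was 0.759 and 0.896 in gilt 47, at most 0.208 in other treated horns and at most 0.140 in control horns. Markers of the endometrium were present in every group, with 7 of 10 listed measured and a summed level of 566 to 1007 in hormone horns, 339 to 1004 in placebo horns, 368 to 761 in control horns P and 368 to 755 in control horns L.

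By level, IL1B was very high in both horns of 2 treated gilts, IL18 was above all control horns in the hormone horns, and IL1A was below the control gilt means in the hormone horns. With limma across all probes, 0 of the 3 genes passed an adjusted p of 0.05 in hormone horns against control gilts, where 11.8% of tested probes passed. In placebo horns against control gilts 0 of 3 passed, against 4.46% of probes. Between hormone and placebo horns 0 of 3 passed, against 0.00256% of probes, a single probe. Between horns P and L of control gilts, and for the difference between treated and control gilts in their horn difference, 0 of 3 passed and the share over all probes was 0% in each. An unadjusted limma p under 0.05 was reached by 10605 of 39091 probes in hormone horns and 9280 of 39092 in placebo horns against control gilts, and by 3877, 955 and 1291 probes in the last 3 comparisons. At that unadjusted level, the members that passed were IL1A in hormone horns against control gilts and between horns, and IL1B and IL18 in placebo horns against control gilts. The median difference over all 3009 genes with a symbol was 0.17 for hormone horns and 0.08 for placebo horns against control gilts.

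**Figure D1:**
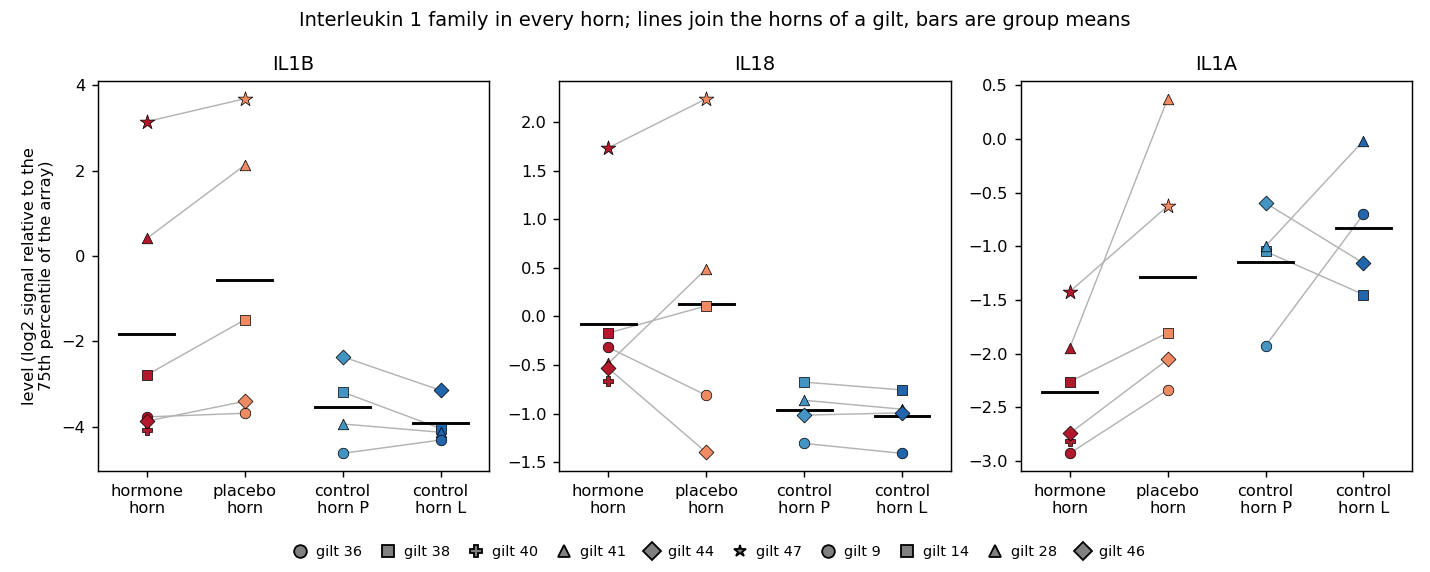
Levels of IL1B, IL18 and IL1A (log2 relative to the 75th percentile of each array, vertical axis) in hormone horns, placebo horns and control horns P and L (horizontal axis). Each symbol is 1 array of 1 gilt, lines join the horns of a gilt and bars are group means; IL1B reached 3.15 and 3.68 in the hormone and placebo horn of gilt 47, and all 6 hormone horns had IL1A at -1.42 or below.

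IL1B, the secreted ligand of activated macrophages, differed more between animals than any other member. Its level in hormone horns was -4.08 at the lowest, -3.28 at the median and 3.15 at the highest. In placebo horns it was -3.68 in gilt 36, -1.49 in gilt 38, 2.12 in gilt 41, -3.40 in gilt 44 and 3.68 in gilt 47. Gilts 41 and 47 were the high ones, with hormone horns at 0.41 and 3.15, while the other hormone horns lay between -4.08 and -2.78. The control horns ranged from -4.62 to -2.36, so the groups overlapped. By gilt, 2 of 6 hormone horns and 3 of 5 placebo horns lay above the means of all 4 control gilts. In gilt 47 the placebo horn signal was 12.8 times the 75th percentile of its array, while in gilt 36 it was 0.0780 times that percentile.

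The group means of IL1B were -1.82 ± 2.95 in hormone horns (SD, n = 6) and -0.55 ± 3.31 in placebo horns (SD, n = 5), against -3.71 ± 0.73 in control gilts (SD, n = 4, horns averaged). The estimated log2 difference from control gilts was 1.89 ± 1.12 in hormone horns (SE, 3.71-fold, limma adjusted p = 0.292) and 2.92 ± 1.15 in placebo horns (SE, 7.55-fold, adjusted p = 0.137). These differences stayed within the spread between gilts. Exact two-sided permutation of the gilts gave p = 0.286 for hormone horns and p = 0.0952 for placebo horns. The differences rested on gilts 41 and 47: without them they were 0.09 ± 0.44 in hormone horns (adjusted p = 0.925) and 0.79 ± 0.47 in placebo horns (adjusted p = 0.413). Without gilt 47 alone they were 0.90 and 1.96, and without gilt 41 alone 1.44 and 2.25.

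Within animals, the hormone horn had less IL1B signal than its opposite placebo horn in 5 of 5 gilts. The hormone horn differed by -0.09 in gilt 36, -1.29 in gilt 38, -1.71 in gilt 41, -0.46 in gilt 44 and -0.53 in gilt 47. In control gilts horn P minus horn L was -0.31, 0.85, 0.19 and 0.79 in gilts 9, 14, 28 and 46. The differences of treated and control gilts overlapped only through gilt 9, whose value lay between those of gilts 36 and 44. The model gave -1.03 ± 0.79 for hormone against placebo horns (SE, adjusted p = 0.638 by limma). The exact sign-flip test over the 5 gilts gave p = 0.0625, the smallest it can give. The comparison of these horn differences with those of control gilts gave a difference of -1.20, exact two-sided permutation p = 0.0317, which is not adjusted and is 1 of 12 such tests made on the 3 genes. The adjusted limma p for the same comparison was 0.998. Over all probes with a value on every array, 2.42% were lower in the hormone horn in all 5 gilts, and IL1B and IL1A were both among them.

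IL1B2 was highest where IL1B was highest, in gilt 47, and did not pass the test. Of its probes, the brightest had levels of -1.96 to 0.19 in hormone horns and -1.95 to 0.33 in placebo horns, against -1.77 to -1.39 in control horns P and -1.92 to -1.43 in control horns L. Both maxima came from gilt 47. In gilt 41, whose IL1B was also high, this probe was at -0.60 in the placebo horn, and at -1.25 in the hormone horn, below the hormone horns of gilts 36 (-0.72) and 40 (-1.20). The log2 difference from control gilts was 0.57 ± 0.33 in hormone horns (SE, limma adjusted p = 0.279) and 0.57 ± 0.34 in placebo horns (SE, adjusted p = 0.309). The other probes gave 1.04 and 0.37 in hormone horns and 1.36 and 0.04 in placebo horns, so the probes of this gene disagreed in size. The probe with 1.04 and 1.36 was dim, at -6.36 to -5.87 in control horns. The lowest level well above background on those arrays was -7.12 to -6.08. Over the 11 treated horns, which share gilts and slides, Pearson r between IL1B and the 3 IL1B2 probes was 0.79, 0.95 (the dim probe) and 0.66. Without gilts 41 and 47 these values were -0.39, 0.28 and -0.34 over 7 horns.

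IL18, which drives interferon gamma release by natural killer and T cells, had a higher mean in treated than in control gilts, without passing the test. The margin was smaller than that of IL1B, and levels varied less between animals. The IL18 level in hormone horns was -0.67 at the lowest, -0.40 at the median and 1.74 at the highest. In placebo horns it was -0.81 in gilt 36, 0.11 in gilt 38, 0.49 in gilt 41, -1.40 in gilt 44 and 2.24 in gilt 47. Control horns ranged from -1.31 to -0.68 for horns P and from -1.41 to -0.76 for horns L. All 6 hormone horns thus lay above all 8 control horns, by a narrow margin in gilt 40. Of the placebo horns, 3 of 5 lay above all control gilt means and that of gilt 44 lay below them. Among all probes with a value on every array, 6.27% had all 6 hormone horns above the 4 control gilt means. That rule is looser than lying above all 8 control horns, for which no share is given here.

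Means of IL18 were -0.07 ± 0.90 in hormone horns (SD, n = 6) and 0.13 ± 1.40 in placebo horns (SD, n = 5), against -0.997 ± 0.27 in control gilts (SD, n = 4). The log2 difference was 0.92 ± 0.45 in hormone horns (SE, 1.90-fold, limma adjusted p = 0.190) and 1.06 ± 0.46 in placebo horns (SE, 2.08-fold, adjusted p = 0.171). Exact two-sided permutation over gilts gave p = 0.00952 for hormone horns, the smallest this design can give and not adjusted over the 12 tests, and p = 0.159 for placebo horns. The other IL18 probe ran in parallel (r 0.996 over 19 arrays) with differences of 0.96 and 1.02. Without gilt 47 the differences of the brighter probe were 0.56 in hormone horns and 0.57 in placebo horns.

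Between the horns of an animal IL18 had no shared direction. The hormone horn was higher by 0.49 in gilt 36 and 0.87 in gilt 44, and differed by -0.28 in gilt 38, -0.97 in gilt 41 and -0.51 in gilt 47. The model gave -0.13 ± 0.31 (SE, limma adjusted p = 0.879) and the exact sign-flip test over 5 gilts p = 0.8125. In control gilts horn P minus horn L stayed between -0.02 and 0.10. The horn differences of treated gilts were thus wider than those of control gilts on both sides of 0.

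IL1A, the cell-bound ligand, had a lower mean in treated than in control gilts, unlike IL1B and IL18. Its level in hormone horns was -2.93 at the lowest, -2.50 at the median and -1.42 at the highest. Placebo horns had -2.34 in gilt 36, -1.80 in gilt 38, 0.37 in gilt 41, -2.05 in gilt 44 and -0.62 in gilt 47. Control horns ranged from -1.92 to -0.60 for horns P and from -1.45 to -0.02 for horns L. All 6 hormone horns lay below the means of all 4 control gilts, although horn P of gilt 9 and horn L of gilt 14 lay below the hormone horn of gilt 47. Among all probes with a value on every array, 4.46% had all 6 hormone horns below the 4 control gilt means. Of the placebo horns, 3 of 5 lay below these means and that of gilt 41 above them.

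Means of IL1A were -2.35 ± 0.59 in hormone horns (SD, n = 6) and -1.29 ± 1.14 in placebo horns (SD, n = 5), against -0.99 ± 0.37 in control gilts (SD, n = 4). The log2 difference in hormone horns was -1.37 ± 0.44 (SE, 2.58-fold lower) with a limma adjusted p of 0.0508, just short of the threshold. The exact two-sided permutation p over gilts was 0.00952, again the smallest this design allows and not adjusted over the 12 tests. In placebo horns the difference was -0.35 ± 0.45 (SE, adjusted p = 0.670, exact permutation p = 0.635). The hormone horn call turned on single animals. Without gilt 41 the difference was -1.45 (adjusted p = 0.0243), without gilt 47 it was -1.55 (adjusted p = 0.0296), and without both it was -1.70 (adjusted p = 0.00655). Without each of the other 8 gilts the adjusted p lay above 0.05, up to 0.145 without gilt 28.

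IL1A signal, too, was below that of the opposite placebo horn in the hormone horns of 5 of 5 gilts. The difference was -0.59 in gilt 36, -0.46 in gilt 38, -2.32 in gilt 41, -0.69 in gilt 44 and -0.80 in gilt 47. Control gilts had horn differences, P minus L, of -1.22 in gilt 9, 0.40 in gilt 14, -0.98 in gilt 28 and 0.56 in gilt 46. The ranges of treated and control gilts overlapped. The model gave -1.01 ± 0.31 for hormone against placebo horns (SE, limma adjusted p = 0.305), and the exact sign-flip p was 0.0625. The horn difference of treated minus control gilts was -0.70 ± 0.47 (SE, adjusted p = 0.998), and exact permutation gave p = 0.254. Without gilt 41 the difference between hormone and placebo horns was -0.68. The estimates against control gilts and between horns share the hormone horn arrays.

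The arrays were scanned on 3 days, and the estimates were repeated within days 1, 2 and 3. Days 1 and 3 held 1 control gilt each and day 2 held 1 placebo horn, that of gilt 41, so these values rest on few animals and no member passed within any day. In hormone horns against control gilts IL1A gave -1.52, -1.50 and -0.97, IL1B 0.65, 1.98 and 2.93, and IL18 0.93, 0.24 and 1.79, with 1 sign on all 3 days for each gene. In placebo horns against control gilts IL1B gave 0.92, 4.74 and 3.84 and IL18 0.25, 1.25 and 2.18, while IL1A turned its sign with -0.88, 1.02 and -0.34. Between hormone and placebo horns IL1A gave -0.64, -2.52 and -0.63 and IL1B -0.28, -2.76 and -0.91, while IL18 turned its sign with 0.68, -1.02 and -0.39. With the slide as a random block, IL1A in hormone horns against control gilts was -1.52 ± 0.37 (SE, limma adjusted p = 0.00748).

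**Figure D2:**
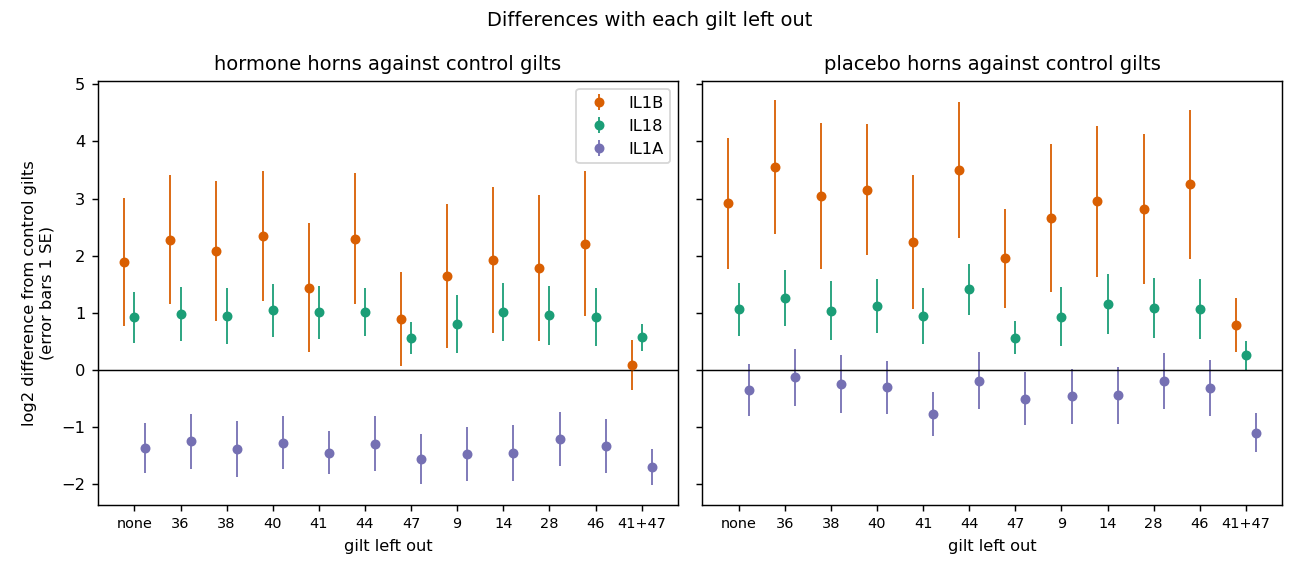
Log2 difference from control gilts (vertical axis, error bars 1 SE) of IL1B, IL18 and IL1A with no gilt left out, each gilt left out in turn, and gilts 41 and 47 left out (horizontal axis), for hormone horns on the left and placebo horns on the right. IL1B in hormone horns moved to 0.09 without gilts 41 and 47, against 1.89 with all gilts, while IL1A stayed between -1.70 and -1.21.

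How the members varied together is described by Pearson r within the treated and the control arrays, which share gilts and slides. Over the 11 treated horns, r was 0.87 between IL1B and IL18, 0.84 between IL1B and IL1A and 0.63 between IL18 and IL1A. IL1A was thus higher in the treated horns with more IL1B, although its group mean was lowest in hormone horns. Over the 7 treated horns outside gilts 41 and 47, r was 0.59 between IL1B and IL18, 0.82 between IL1B and IL1A, its neighbour on the chromosome, and 0.04 between IL18 and IL1A. Over the 8 control horns the values were 0.41, 0.28 and 0.07. Pooled over all 19 arrays, r between IL1B and IL1A was 0.36.

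Among 2947 genes with a symbol and a value on every array, the 4 most like each member were named by Pearson r over the 19 arrays. For IL1B these were TLR2, a sensor of bacterial lipoproteins (r 0.96, 0.91 without gilt 47), BCL2A1, a survival factor of leukocytes (0.96, 0.91), the signalling adaptor SH2B3 (0.96, 0.90) and CCL2, which attracts monocytes (0.95, 0.96). Without gilts 41 and 47, r with IL1B was 0.72, 0.59, 0.76 and 0.83, and over the 8 control arrays it was 0.48, 0.52, 0.74 and 0.77. For IL18 they were CCL4, another chemokine (0.95, 0.80), ALOX5AP of leukotriene synthesis (0.95, 0.79), the tumour necrosis factor receptor TNFRSF1B (0.94, 0.79) and CD163, a macrophage scavenger receptor (0.93, 0.71), with 0.52, 0.35, 0.95 and 0.95 over the control arrays. For IL1A they were the potassium channel subunit KCNE3 (0.80, 0.83), the interferon-induced genes OAS2 (0.76, 0.76) and EIF2AK2 (0.74, 0.73), and AP4S1 of vesicle sorting (0.71, 0.70). Over the 8 control arrays alone, r with IL1A was 0.70, 0.73 and 0.67 for KCNE3, OAS2 and EIF2AK2 and -0.07 for AP4S1.

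Markers of myeloid cells were highest in the gilt with the most IL1B and IL18, but did not follow IL1B in every horn. The median macrophage and monocyte marker was 2.49 and 2.79 log2 units above its control mean in the hormone and placebo horn of gilt 47, and 1.00 and 1.09 in those of gilt 41. The median neutrophil marker was 6.40 and 7.33 units above in gilt 47, and 4.04 and 3.35 in gilt 41. In gilt 36, where IL1B was as low as in control horns, the macrophage median was 0.60 and 0.35 and the neutrophil median 0.68 and 1.22. In gilt 38 the neutrophil median was 2.63 and 4.64, the placebo value being above that of gilt 41, with IL1B at -2.78 and -1.49. The neutrophil markers disagreed, with differences from control gilts of -1.39 to 6.42 in hormone horns. Their summed level was 62.3 and 10.2 in the hormone and placebo horn of gilt 38, against 44.5 and 7.45 in gilt 41. In the hormone horn of gilt 40 the sum was 21.2 and the median 0.34, with IL1B at -4.08. In the hormone horn of gilt 44 the macrophage median was 0.91, close to that of gilt 41, with IL1B at -3.87. In gilt 47 the lymphocyte lists were also above their control means, by a median of 2.61 and 2.52 units for markers of T and natural killer cells and of 3.08 and 3.32 for those of B cells. Within hormone horns IL1A, too, was highest in gilts 47 and 41. The part of these cells in the results was not tested, and in whole tissue more cells of a type and more RNA per cell cannot be told apart.

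**Figure D3:**
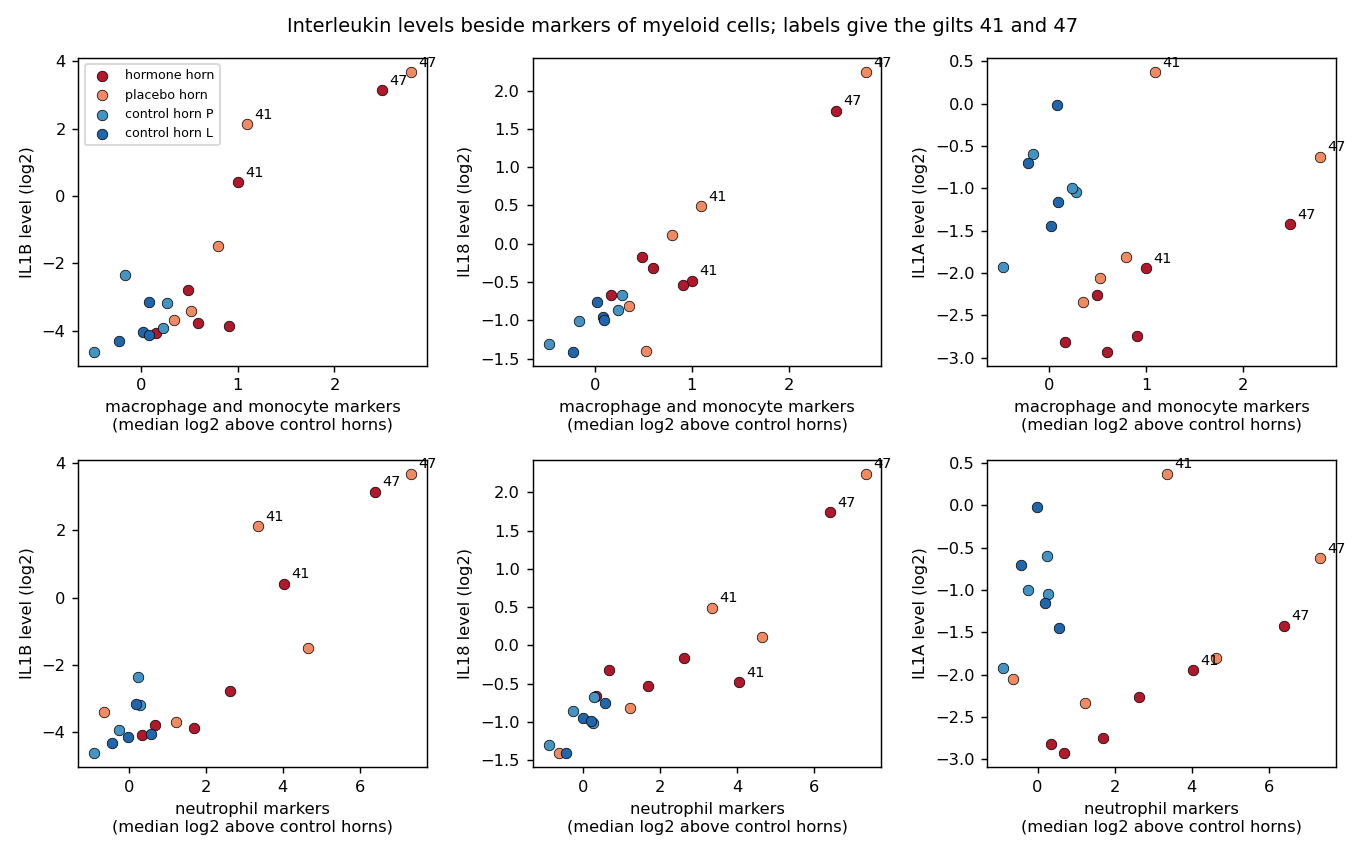
Levels of IL1B, IL18 and IL1A (log2, vertical axes) against the median log2 level above control horns of 10 macrophage and monocyte markers (top) and 7 neutrophil markers (bottom, horizontal axes), with 1 point per array coloured by group. The arrays of gilts 41 and 47 are labelled; IL1B at 3.15 and 3.68 goes with neutrophil medians of 6.40 and 7.33 in gilt 47.

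Of the receptors, IL18R1 was the 1 gene measured of 11 listed, and it fell in hormone horns, as did 2.39% of all genes with a symbol. Its level was -3.96 at the lowest, -3.60 at the median and -3.13 at the highest in hormone horns, and -2.70, -2.29, -2.58, -3.19 and -3.79 in the placebo horns of gilts 36, 38, 41, 44 and 47. Control horns ranged from -3.55 to -1.51, and horn P of gilt 9 was the only control horn that reached into the range of the hormone horns. The log2 difference was -1.27 ± 0.34 in hormone horns (SE, 2.42-fold lower, limma adjusted p = 0.0247), -0.62 ± 0.36 in placebo horns (SE, adjusted p = 0.298) and -0.65 ± 0.24 between hormone and placebo horns (SE, adjusted p = 0.397). The receptor's ligand IL18 lay higher in the same horns, without passing the test. The call was lost under 10 alternatives, among them those without gilt 28 (-1.10, adjusted p = 0.0951), without gilt 46 (-1.20, adjusted p = 0.0533), without gilts 41 and 47 (-1.16, adjusted p = 0.0546) and with only the groups compared (-1.27, adjusted p = 0.105). With slide as a term the difference was -0.69, an estimate that sets treated against control gilts only through gilts 36 and 9, which shared a slide.

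Of the genes that process the ligands, 4 of 16 listed were measured and 0 passed in any comparison. Over all genes with a symbol, 13.2% rose and 2.39% fell in hormone horns, and 3.72% and 0.831% in placebo horns. A list of 4 genes is too short to set its 0 against these shares. CASP1, which cuts IL1B and IL18, differed from control gilts by 0.53 ± 0.42 in hormone horns (SE, limma adjusted p = 0.445) and by 0.93 ± 0.43 in placebo horns (SE, adjusted p = 0.202). NLRP3, the sensor of the inflammasome that activates caspase 1, gave 0.93 and 0.97. CASP8 and CAPN2, a calpain of the family that cuts the IL1A precursor, gave 0.36 and 0.38 in hormone horns. The median of the 4 was 0.46 in hormone horns and 0.66 in placebo horns.

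Downstream of the receptors, 12 of 35 listed signalling genes were measured. In hormone horns 3 rose and 0 fell, with a median of 0.33, while 13.2% of all genes with a symbol rose and 2.39% fell. The adaptor MYD88 rose by 1.10 ± 0.26 (SE, limma adjusted p = 0.0136), the NF-kappa B subunit RELA by 0.62 ± 0.15 (SE, adjusted p = 0.0143) and NFKBIA, the inhibitor that NF-kappa B itself induces, by 1.13 ± 0.35 (SE, adjusted p = 0.0415). In placebo horns 3 rose and 0 fell, with a median of 0.40, against 3.72% and 0.831% of all genes: MYD88 by 1.24 ± 0.27 (SE, adjusted p = 0.0249), RELA by 0.69 ± 0.15 (SE, adjusted p = 0.0253) and the kinase CHUK by 0.97 ± 0.26 (SE, adjusted p = 0.0427). NFKBIA gave 1.08 in placebo horns (adjusted p = 0.0844). MYD88 lay between -3.31 and -2.18 in hormone horns and between -3.38 and -1.53 in placebo horns, against -4.46 to -3.54 in control horns, so that all treated horns were above all control horns. How many of all probes separated in this way was not counted. By a looser rule, 6.27% of probes had all 6 hormone horns above the 4 control gilt means. Both sets of estimates share the control arrays. Each of these calls was lost when some single gilts were left out. In hormone horns those of MYD88 (without gilt 9, adjusted p = 0.0530, or gilt 14, adjusted p = 0.0573), RELA and NFKBIA were lost without 2, 2 and 6 of the 10 gilts, and in placebo horns those of MYD88, RELA and CHUK without 4, 5 and 7. With both horns of a control gilt averaged into 1 value, all 3 placebo horn calls were lost (limma adjusted p = 0.100 for MYD88, 0.0967 for RELA and 0.128 for CHUK), as they were with only the groups compared or with horn mark as a term. In hormone horns RELA was lost under that averaging (adjusted p = 0.0636), while MYD88 and NFKBIA were not.

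**Figure D4:**
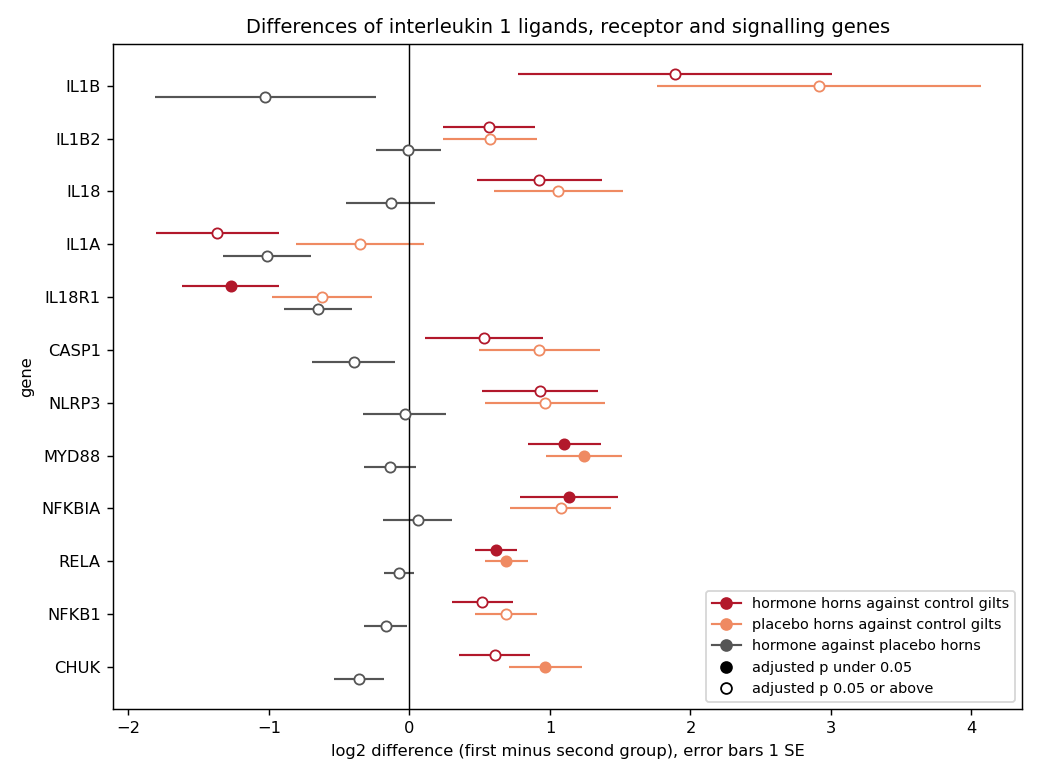
Log2 differences (horizontal axis, error bars 1 SE) of interleukin 1 ligands, IL18R1, processing and signalling genes in hormone horns against control gilts, placebo horns against control gilts and hormone against placebo horns. Filled points have a limma adjusted p under 0.05; IL18R1, MYD88, NFKBIA and RELA are filled for hormone horns, MYD88, RELA and CHUK for placebo horns, and none between horns.

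Genes known from other systems to be induced by interleukin 1 were measured for 22 of 27 listed. Some of these were dim in control horns. MMP1 lay there between -9.24 and -7.05, below the lowest level well above background on each of those arrays. CSF2 lay between -8.27 and -6.28, below that level in all control horns but horn L of gilt 46. Both enter the medians given here, which were not repeated without them. In hormone horns 4 of the 22 rose and 1 fell, while 13.2% and 2.39% of all genes with a symbol did, and the median difference was 0.79 against 0.17. The acute phase gene SAA3 rose by 5.34 ± 0.99 (SE, limma adjusted p = 0.00411), the transcription factor CEBPB by 1.79 ± 0.30 (SE, adjusted p = 0.0024), the hyaluronan-binding gene TNFAIP6 by 2.71 ± 0.79 (SE, adjusted p = 0.0349) and LCN2, which binds bacterial iron carriers, by 2.39 ± 0.70 (SE, adjusted p = 0.0352). NOS2, the inducible nitric oxide synthase, fell by 0.59 ± 0.17 (SE, adjusted p = 0.0349). In placebo horns 2 of the 22 rose (against 3.72% of all genes) and 0 fell (against 0.831%), with a median of 1.18 against 0.08 over all genes: SAA3 by 4.32 ± 1.02 (SE, adjusted p = 0.0310) and CEBPB by 1.92 ± 0.30 (SE, adjusted p = 0.00922). Between hormone and placebo horns 0 of the 22 passed.

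SAA3 separated treated from control gilts in every horn and, within hormone horns and within placebo horns, was highest in gilts 47 and 41 as IL1B was. It lay between 1.37 and 8.60 in hormone horns and between 0.83 and 8.79 in placebo horns, against -1.76 to 0.32 in control horns, so that every treated horn was above every control horn. Its hormone horn levels were 8.60 in gilt 47, 5.42 in gilt 41 and at most 4.31 in the others, and in placebo horns the gilts stood in the same order for SAA3 as for IL1B, with gilt 36 lowest. In hormone horns the order differed: gilt 40 had the lowest IL1B, -4.08, with SAA3 at 4.31. That value and the 4.11 of gilt 38 were above the 3.81 in the placebo horn of gilt 41. CEBPB lay between -2.27 and -1.28 in hormone horns and between -2.15 and -0.83 in placebo horns, against -4.46 to -2.71 in control horns. The share of all probes that separated like SAA3 and CEBPB was not counted. All 6 hormone horns lay above the 4 control gilt means, a looser rule, for 6.27% of probes. The lowest hormone horn for CEBPB was that of gilt 41, and its highest placebo horn that of gilt 47. Both genes separated treated from control gilts also in gilts 36 and 44, where IL1B lay within the range of control horns. The neutrophil attractant CXCL8 was high where IL1B was: -1.17 and 1.39 in the hormone horns of gilts 41 and 47 and -0.08 and 2.34 in their placebo horns, against -6.16 to -3.62 in control horns. Its differences of 1.53 and 2.40 did not pass (limma adjusted p = 0.409 and 0.218). Leaving out single gilts kept the calls of SAA3 and CEBPB in hormone horns for each of the 10 gilts. It ended those of LCN2, TNFAIP6 and NOS2 for 6, 4 and 5 gilts, and in placebo horns those of SAA3 and CEBPB for 6 and 2 gilts. With both horns of a control gilt averaged into 1 value, both placebo horn calls were lost (limma adjusted p = 0.138 for SAA3 and 0.0850 for CEBPB), and so were those of LCN2 (0.0961), TNFAIP6 (0.0654) and NOS2 (0.0865) in hormone horns, with SAA3 and CEBPB kept there. With slide as a term, SAA3 differed by 1.33 in hormone horns and by 0.29 in placebo horns. That fit sets treated against control gilts only through gilts 36 and 9, which shared a slide, so it rests on 1 gilt of each kind.

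**Figure D5:**
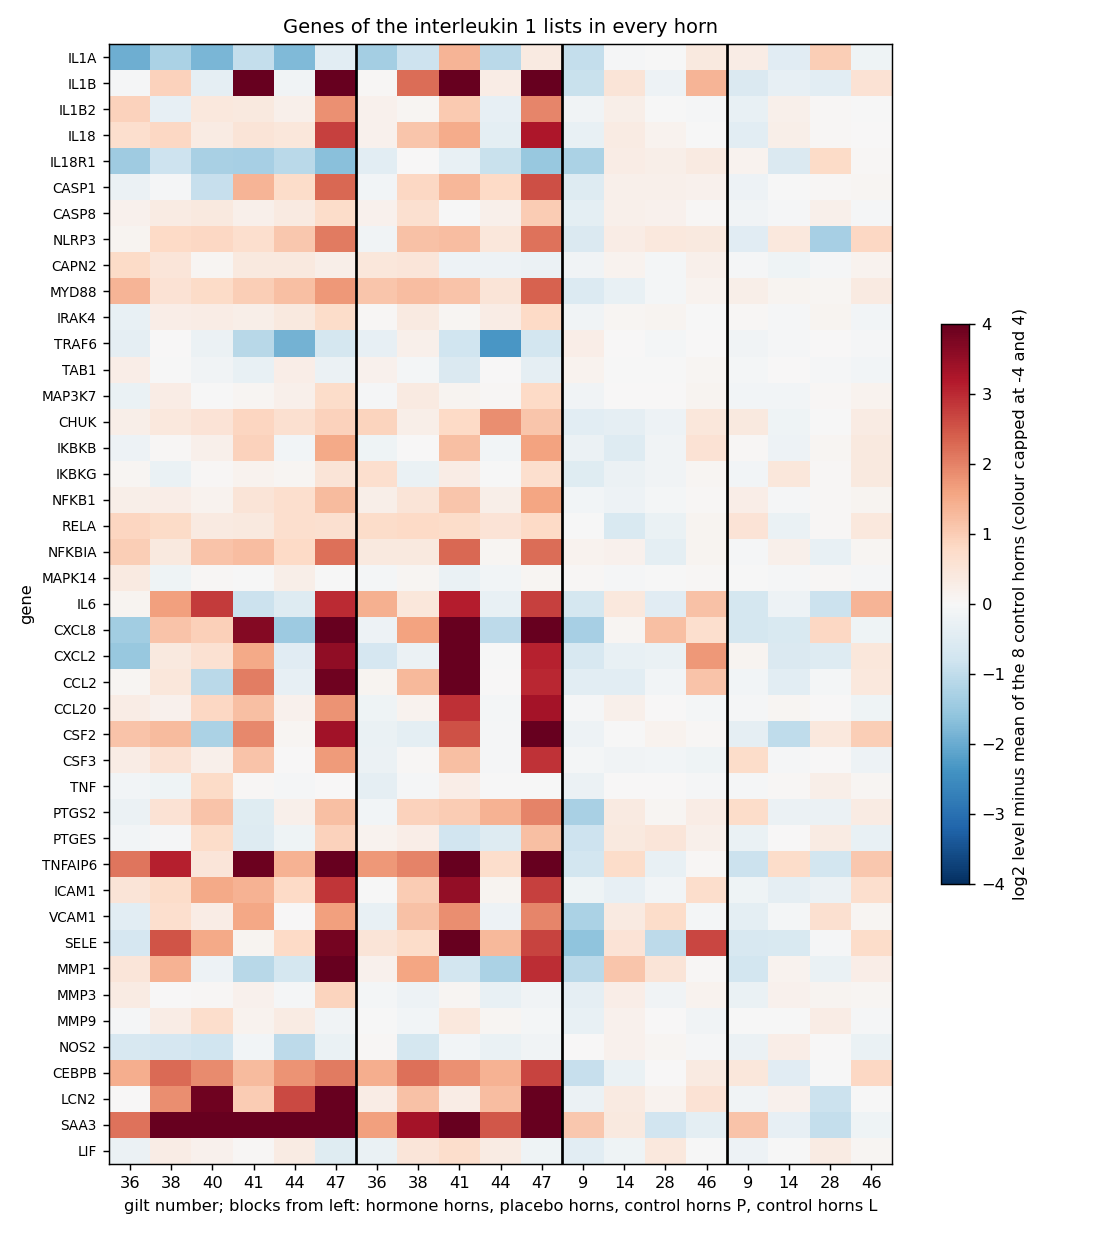
Log2 level of each measured gene of the interleukin 1 lists (vertical axis) minus its mean over the 8 control horns, in every array (horizontal axis, gilt numbers; blocks from left are hormone horns, placebo horns, control horns P and control horns L). Red is above and blue below the control mean, with colours capped at 4 units; IL1A and IL18R1 are blue in all 6 hormone horns, and IL1B is deepest red in gilts 41 and 47.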

How the data were processed

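RNA of 19 horns was measured on Agilent arrays with a single colour. Agilent Feature Extraction 10.7.3.1 gave a linear intensity for every deposited spot, background-subtracted within its array, per the file headers (the submitters' processing notes name 9.1). The authors' deposited value table is on a log2 scale with normalization, scale and centring not given in the sources used here. Against the scanner values on the log2 scale each array correlated at 0.996 to 0.999, medians were 7.72 to 7.83, and the table served as an alternative. Columns of no sample numbered 0.

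Control spots were left out, as were outlier-flagged values (19 to 155 per array), spots of a probe were averaged, and log2 values were scaled to the 75th percentile of each array. Of 43603 probes, the 39095 that were well above background on 4 or more arrays entered the test with limma 3.58.1 and statmod 1.5.0 in R 4.3.3. The fit held 4 groups, with gilt entered as the random block (within-gilt correlation 0.536), with trended eBayes and Benjamini-Hochberg adjustment over all tested probes. The threshold was an adjusted p of 0.05. Gene lists and members were counted by the brightest probe per gene. The number of gilts limits precision. The fit counts arrays, so comparisons between gilts can have adjusted p that are too small. The code was tested on simulated data.

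The gilt number in the labels pairs horns: deviations of the same gilt from the group means correlated at 0.336 to 0.795 in treated and 0.403 to 0.628 in control gilts, against at most 0.143 and 0.0185 for other gilts. Exact two-sided permutation tests exchanged gilts, with control horns averaged, or flipped the signs of horn differences. They are exact in that all exchanges were counted. Against control gilts, a treated horn is a single array while a control gilt is a mean over its horns. The exchanged values thus differ in precision, and those p hold only approximately. For IL1A the control SD was 0.57 over horns and 0.37 over gilt means. Symbols came through RefSeq accessions matched to the Sscrofa11.1 table, for 6452 tested probes (3010 symbols). Named are all members, the relatives IL18R1, CASP1, MYD88 and NFKBIA, up to 6 genes of each interleukin 1 list that passed, and the 4 genes most like each member. The relatives IL1R2, IL1RAP, IL1RL1, IL18RAP, IL18BP and IL33 had no matched probe here. NLRP3, CASP8, CAPN2 and CXCL8, and NFKBIA in the comparison it did not pass, are named outside that rule, chosen after their values were seen. The members and lists were chosen with earlier results of these data known. Alternatives changed the background correction (normexp with offset 50 on median signals, since no mean signal was used), normalization, filters, blocks, slide, scan day, horn mark, the probe and the gilts included. No sequences are shown, as probe sequences were not used here.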

Additional observations from a re-analysis of the deposited data

Results flagged for a closer look

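The hormone horn of gilt 47 lay apart from the other 5 hormone horns in both IL18 probes. The brighter probe was at 1.737 there and between -0.67 and -0.17 in the other hormone horns, and the second probe was at 1.192 there. In both, the gap to the next hormone horn exceeded the critical value of Dixon's test at the 95% level. The test covered 16 groups of arrays, and chance marks about 1 in 20. The placebo horn of the same gilt was also the highest of its group, at 2.24 and 1.55. Without gilt 47, IL18 differed from control gilts by 0.56 ± 0.28 in hormone horns (SE, limma adjusted p = 0.210), against 0.92 ± 0.45 with all gilts.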

How the results depend on the processing

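The number of the 3 genes that passed in hormone horns against control gilts was 0, and it became 1, IL1A, under 10 of 30 alternatives: with no replicate block (difference -1.37, limma adjusted p = 0.0208), with horns of each control gilt averaged (adjusted p = 0.0274), with quantile normalization (0.0485), with normexp on median signals (0.0444), with slide as a random block (0.00748), with scan day as a term (0.0482), without gilts 41 and 47 (0.00655), and with slide as a term. With slide as a term the difference was -1.80, which sets treated against control gilts only through gilts 36 and 9, 1 gilt of each kind. Leaving out 1 gilt at a time gave 0 to 1, with IL1A passing without gilt 41 or gilt 47. In the other 4 comparisons the number stayed 0 under every alternative run. IL1A in hormone horns ranged from -1.80 to -0.97 and IL1B from 0.09 to 2.93, with positive IL1B and IL18 in all alternatives run.

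Signs turned in few places. IL1A in placebo horns against control gilts was 1.018 within scan day 2. IL18 between hormone and placebo horns was 0.68 within scan day 1 and 0.3152 without gilts 41 and 47, and -0.39 to 0.06491 with single gilts left out. Its horn difference of treated minus control gilts was 0.2521 without gilts 41 and 47, and -0.45 to 0.001862 with single gilts left out. The cause was not tested.

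Over all probes, the number that passed in hormone horns against control gilts was 4602, from 1 within scan day 3 to 8294 with slide as a random block. In placebo horns it was 1745, from 0 without gilt 28 or with control horns averaged (7387 and 8692 at an unadjusted p under 0.05) to 5000 with slide as a random block. Between horns it was 1, and 0 to 33 otherwise.

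The 10 gilts limit the precision, and slide and gilt cannot be told apart except for gilts 9 and 36. All 4 member probes were well above background on every array, which does not hold for every gene of the lists. The size of the member differences still varied with the background correction. With normexp on median signals, the hormone horn differences were 1.46 for IL1B, -1.16 for IL1A and 0.82 for IL18. In the main fit they were 1.89, -1.37 and 0.92.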
